A study of Mus musculus with 4 samples.

Results

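RNA levels of 10 genes that maintain DNA methylation, remove it or encode DNA-binding proteins of methylated or unmethylated sites were compared across fetal mouse germ cells and gonadal somatic cells. The genes were taken by name: Dnmt1, Uhrf1, Uhrf2 and Hells for maintenance, Tet1, Tet2, Tet3 and Tdg for removal, and the paired zinc finger genes Ctcf and Ctcfl. Each name matched 1 row of the 20299 genes kept. All 10 passed the filter on low values, and 9 of them reached 1 SPM in every library. SPM is the deposited read signal as parts per 1000000 of its library, after trimmed-mean (TMM) scaling.

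The study sequenced strand-specific, ribosome-depleted RNA from sorted cells of fetal gonads, in 4 libraries. Male germ cells, female germ cells, male somatic cells and female somatic cells were each represented by 1 library, all from untreated fetuses at 15.5 days post coitum (dpc). The fetuses of every group came from CF1 mothers and TgOG2 fathers, whose transgene places green fluorescent protein under the Oct4 promoter, and the fluorescent cells were taken as germ cells. The somatic fraction is everything in the gonad that was not fluorescent, so it mixes cell types. The labels do not say how many fetuses were pooled or whether the libraries came from separate animals. Estimated depth ran from 17.5 M to 24.9 M fragments per library (M, 1000000). Of 8 germ cell markers, 4 passed as higher in germ cells by limma, against 2.5% of all genes, with no marker lower. The 8 markers summed in somatic cells to 1.27% of their germ cell level in each sex. Kit gave 35.9 of the 69.9 SPM of that somatic sum in males and 38.8 of 48.0 in females. It did not separate the fractions, with 29.4 (male) and 49.4 (female) SPM in germ cells. The 7 stroma markers summed to 0.9996% to 1.29% of their somatic level in the germ libraries, and the 5 red blood cell markers to 0.827% to 0.962%. The Sertoli cell markers stood at 4.02% of their somatic level in the male germ library. The pregranulosa markers stood at 3.02% in the female one. The Leydig cell markers stood at 7.80% (male) and 12.7% (female). In the female germ library Star gave 10.9 of their 11.5 SPM, and Cyp11a1, Cyp17a1 and Insl3 were at 0. The 4 endothelial markers stood at 30.2% (male) and 11.5% (female), but did not move together. In males the germ over somatic ratio was 1.14 for Pecam1 and 1.26 for Tek, but 0.198 for Cdh5 and 0.0383 for Kdr. In females it was 1.16 for Pecam1, 0.382 for Tek, 0.0807 for Cdh5 and 0.0119 for Kdr. The 4 leukocyte markers, all low, stood at 12.4% (male) and 15.7% (female).

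When DNA is copied, the new strand lacks methyl groups. UHRF1 binds the half-methylated sites and brings in DNMT1, which restores the missing methyl group, and the chromatin remodeller HELLS (LSH) opens compact DNA for this step. TET enzymes oxidise 5-methylcytosine, and the glycosylase TDG cuts out the most oxidised forms, which base excision repair then replaces. CTCF binds insulators such as those of imprinted genes, in part depending on methylation, and CTCFL (BORIS) is its germline paralog. Germ cells lose most of their DNA methylation as they reach the gonad. Male germ cells regain it before birth, while they are arrested in the cell cycle, whereas female germ cells enter meiosis and regain it only in growing oocytes after birth.

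The 3 maintenance genes Hells, Uhrf1 and Dnmt1 were all lower in male than in female germ cells, and all higher in male than in female somatic cells. Of the other members, Tet1 and Ctcfl were more than 2-fold higher in male germ cells, and Tet2, Tet3, Tdg and Uhrf2 differed little between germ cells of the sexes. Because each of these contrasts sets 1 library against 1, there is no replicate check, and the intervals given with ratios are exact conditional binomial 95% intervals that cover counting error only. In bulk RNA of this kind, fewer cells of a type and less RNA per cell cannot be told apart.

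Dnmt1, the maintenance methyltransferase gene (mm9 chromosome 9, 20711649 to 20764332, minus strand), stood at 324 SPM in the male and 542 in the female germ library, and at 444 and 232 in the somatic libraries of males and females. The female germ library was the highest and the female somatic library the lowest, so the germ and somatic levels overlapped. The level was 1.67-fold higher in female than in male germ cells (1.62 to 1.72), and 1.91-fold higher in male than in female somatic cells (1.85 to 1.98). Dnmt1 has separate start sites in oocytes and in other cells, and the single deposited row does not tell them apart. Per kilobase of listed length, Dnmt1 was at the 84.5th percentile or above of the genes at 1 SPM or more in every library, with the highest at 93.4.

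Uhrf1, the gene for the reader of half-methylated sites (chromosome 17, 56442759 to 56462909, plus strand), was lowest in male germ cells, at 23.7 SPM. The female germ library had 65.0 SPM, and the somatic libraries had 114 (male) and 63.1 (female). Its level was 2.74-fold higher in female than in male germ cells (2.49 to 3.03), and 1.81-fold higher in male than in female somatic cells (1.69 to 1.93). Female germ and female somatic cells did not differ beyond counting error, with a ratio of 1.03 (0.953 to 1.11), whereas male germ cells were 4.81-fold below male somatic cells (4.40 to 5.27). The low Uhrf1 level of male germ cells also stands out against Dnmt1 in the same library. Per length, Dnmt1 was 7.90 times Uhrf1 in male and 4.82 times in female germ cells, but 2.25 and 2.13 times in the somatic libraries of males and females, values that do not depend on the scaling between libraries.

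Uhrf2, a relative of Uhrf1 that also binds modified cytosine but does not replace it in maintenance (chromosome 19, 30105002 to 30168214, plus strand), had a flatter profile. The germ libraries had 94.9 SPM (male) and 85.3 (female), and the somatic libraries 136 (male) and 167 (female). Both germ libraries were below both somatic libraries, and the highest was 1.95 times the lowest. Per length, Uhrf2 exceeded Uhrf1 in every library, by 4.13 times (male) and 1.36 times (female) in germ cells and by 1.23 times (male) and 2.73 times (female) in somatic cells. The excess was largest in male germ cells.

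Hells, the remodeller gene (chromosome 19, 39005479 to 39042767, plus strand), had the widest range of the maintenance genes. The germ libraries had 793 SPM (female) and 191 (male), the somatic libraries 70.0 (male) and 47.4 (female), and the germ and somatic libraries did not overlap. The level was 4.16-fold higher in female than in male germ cells (4.03 to 4.30), 16.7-fold higher in female germ than in female somatic cells (15.8 to 17.8) and 2.72-fold higher in male germ than in male somatic cells (2.55 to 2.90). In somatic cells it was 1.48-fold higher in males (1.36 to 1.60). Per length, Hells in female germ cells was at the 98.8th percentile of genes at 1 SPM or more. It exceeded Dnmt1 by 3.06 times in that library and by 1.23 times in male germ cells, but was 0.329 and 0.426 of Dnmt1 in male and female somatic cells.

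**Figure D1:**
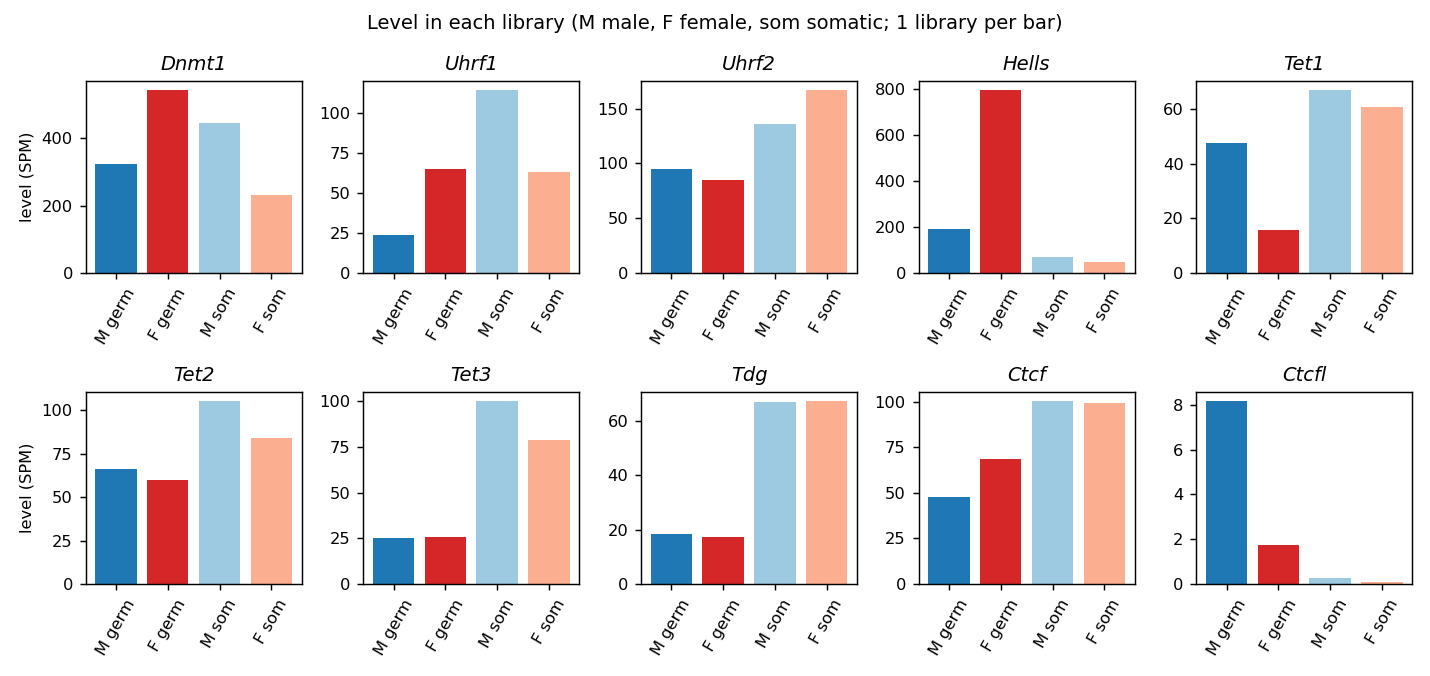
Level of each of the 10 genes in SPM (vertical axis, from 0, a separate scale for each gene) in the 4 libraries, with 1 library per bar and no error bar. Hells and Ctcfl were higher in both germ libraries, Dnmt1 and Uhrf1 overlapped between germ and somatic cells, and the other 6 were lower in both germ libraries.

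The 3 maintenance genes with the shared sex pattern also shared a promoter feature. RefSeq promoter windows (build GRCm38.p6) were found for 9 of the 10 genes, 12 windows in all, and the 250 bases before each start site were searched on both strands for the E2F words TTTCCCGC, TTTCGCGC, TTTGCCGC and TTTGGCGC. E2F factors switch on genes of DNA replication. A word was present in 1 window each of Dnmt1, Uhrf1 and Hells and in no window of the other 6 genes, against 1.86% of all 32851 windows and 2.16% of 27025 genes. The words were chosen after these sequences and levels had been seen, so the shares over all windows and genes give no test. Every word holds a CpG. The matching windows of Dnmt1, Uhrf1 and Hells held 26, 30 and 28 CpG sites, against a median of 6 over all windows. A match is a description of the letters and not evidence of binding. The 28 bases around each match are shown along the gene's strand, with the word in capitals.
Dnmt1: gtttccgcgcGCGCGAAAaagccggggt
Uhrf1: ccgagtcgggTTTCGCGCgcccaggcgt
Hells: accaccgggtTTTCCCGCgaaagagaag

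In Dnmt1 (chr9:20952825-20952852, minus strand) the word reads on the opposite strand and begins 219 bases before the start site. In Uhrf1 (chr17:56304118-56304145, plus strand) it begins 185 bases and in Hells (chr19:38930918-38930945, plus strand) 62 bases before it. In GENCODE M21 the words of Dnmt1 and Hells fall within an exon of some transcript of the gene, and that of Uhrf1 does not. The whole upstream stretch of Uhrf1 (chr17:56304063-56304312), with the word in capitals, shows its setting in a CpG-rich promoter with 30 CpG sites.
Uhrf1 promoter: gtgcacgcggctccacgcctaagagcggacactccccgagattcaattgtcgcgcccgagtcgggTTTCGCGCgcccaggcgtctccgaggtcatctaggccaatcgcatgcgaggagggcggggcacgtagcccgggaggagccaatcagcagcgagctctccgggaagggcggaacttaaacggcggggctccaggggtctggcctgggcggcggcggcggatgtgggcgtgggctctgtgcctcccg

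The number of CpG sites in the 12 windows ran from 2, in the most upstream Dnmt1 window, to 51 in that of Tet2, against a median of 6 over all windows. The Dnmt1 window with the E2F word held 26 and that of Hells 28. These counts describe the sequence, and methylation of these promoters was not measured here.

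Most genes of DNA replication and the cell cycle lay on the same sides as the 3 maintenance genes. Of 15 such genes, 7 were at least 2-fold lower and 1 at least 2-fold higher in male than in female germ cells, against 26.3% and 26.8% of 11766 genes. In somatic cells 4 were at least 2-fold higher in males and none lower, against 9.61% and 8.26% of 11835 genes. The ends of the list were Ccne2 (cyclin E2, male over female ratio 0.053) and the proliferation marker gene Mki67 (0.062), and the replicative helicase gene Mcm7 (2.50) and the nucleotide reductase gene Rrm1 (1.95). E2f1, an E2F gene on the list that was picked after its values were seen, had 20.03 SPM (male) and 36.1 (female) in germ cells and 32.2 (male) and 16.2 (female) in somatic cells. Altogether 11 of the 15 were below the female level in male germ cells and above it in male somatic cells, or 9 with library totals or upper-quartile scaling. The same held for 5 of the 9 members with 5 SPM in both fractions (Dnmt1, Uhrf1, Hells, Tet3 and Ctcf), against 27% of 10345 genes, while 2 members (Uhrf2 and Tdg) had the reverse pattern, against 23.1%. For Tet3 and Ctcf 1 of the 2 ratios lay within counting error of no difference. With library totals in place of TMM scaling, the male over female ratio of Tet3 turned to 1.09 in germ cells and that of Ctcf to 0.924 in somatic cells, and Dnmt1, Uhrf1 and Hells kept the pattern. Thus 3 of the 9 members kept it with library totals, and the same 3 with upper-quartile scaling. The shares of all genes were computed with TMM scaling only, so the counts under the other scalings have none beside them. The part of the cell cycle in the levels of the maintenance genes was not tested.

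**Figure D2:**
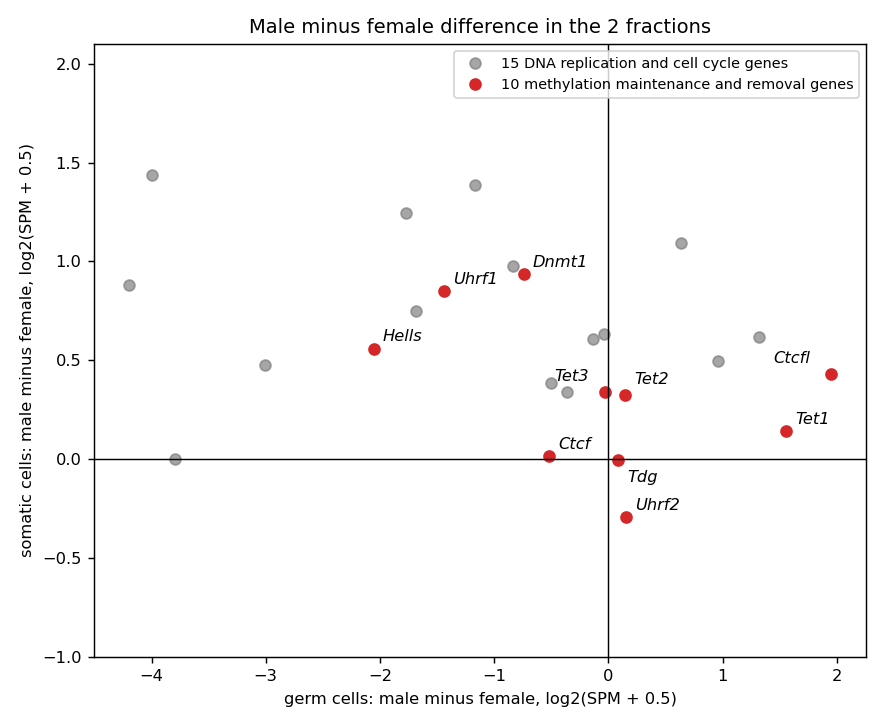
Male minus female difference of log2(SPM + 0.5) in germ cells (horizontal axis) and somatic cells (vertical axis), with 1 library per sex and fraction. Points at upper left were lower in male germ cells and higher in male somatic cells. They hold Hells, Uhrf1 and Dnmt1 (red) with most of the replication and cell cycle genes (grey). Tet3 and Ctcf (red) also fall there, each close to 1 of the axes.

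Tet1, the TET gene with a CpG-binding domain that acts in germ cells at imprints and meiotic genes (chromosome 10, 62267317 to 62342762, minus strand), was the only TET gene that differed by 2-fold or more between germ cells of the sexes. Its level was 47.4 SPM (male) and 15.8 (female) in germ cells, and 66.8 (male) and 60.6 (female) in somatic cells. The female germ library was the lowest. The male over female ratio was 3.005 in germ cells (2.63 to 3.44), whereas in somatic cells the ratio was 1.10 (1.02 to 1.19). Female germ cells were 3.84-fold below female somatic cells (3.36 to 4.39), and male germ cells 1.41-fold below male somatic cells (1.30 to 1.53).

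Tet2, a TET gene without that domain (chromosome 3, 133126640 to 133207354, minus strand), had 66.3 SPM (male) and 59.8 (female) in germ cells, and 106 (male) and 84.3 (female) in somatic cells. The germ libraries lay below the somatic ones, but the range of 1.77 times from lowest to highest was the smallest of the 10 genes. The male over female ratio was 1.11 in germ cells (1.02 to 1.199) and 1.25 in somatic cells (1.17 to 1.33).

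Tet3, the TET gene best known from the zygote (chromosome 6, 83312367 to 83391672, minus strand), was low in germ cells of both sexes. The levels were 25.1 SPM (male) and 25.7 (female) in germ cells, against 100.2 (male) and 79.0 (female) in somatic cells. Germ cells of the sexes did not differ beyond counting error (ratio 0.978, 0.865 to 1.11). They were 3.99-fold below somatic cells in males (3.65 to 4.37) and 3.08-fold in females (2.77 to 3.42).

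The make-up of the TET signal differed between fractions. Per length, Tet2 gave the largest share in every library, at 56.0% (male) and 65.2% (female) in germ cells, and 45.2% (male) and 44.3% (female) in somatic cells. Tet3 gave 17.9% (male) and 23.6% (female) in germ cells, against 36.1% and 35.0% in somatic cells. Tet1 gave 26.1% in male germ cells and 11.2% in female germ cells, the highest and the lowest of the 4 libraries. Summed over the 3 genes, the level was 12.9 SPM per kb (male) and 9.98 (female) in germ cells, and 25.4 (male) and 20.7 (female) in somatic cells. Set against this sum, Dnmt1 was 3.96 times (male) and 8.56 times (female) as high in germ cells, and 2.76 times (male) and 1.77 times (female) in somatic cells.

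**Figure D3:**
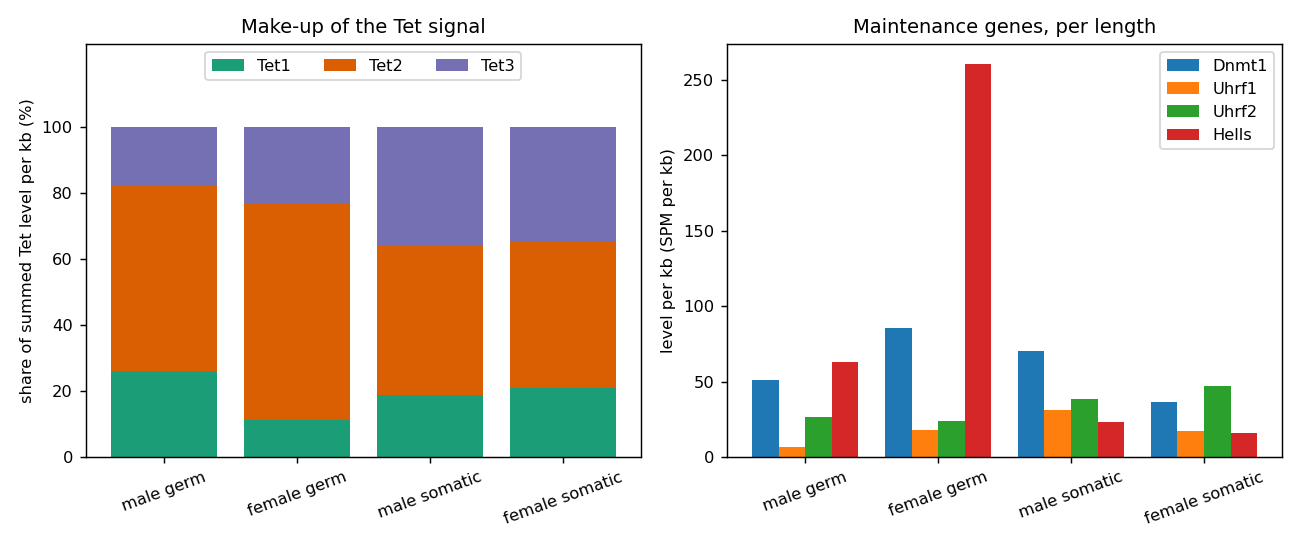
Left, share of Tet1, Tet2 and Tet3 in their summed level per kb (percent) in each library. Right, level per kb (SPM per kb, from 0) of the 4 maintenance genes. Tet2 was the largest TET share throughout, Tet1 ranged from 11.2% to 26.1%, and Hells stood above Dnmt1 only in the germ libraries.

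Tdg, the gene of the glycosylase downstream of the TET enzymes (chromosome 10, 82092582 to 82113239, plus strand), split cleanly by fraction. Its level was 18.4 SPM (male) and 17.4 (female) in germ cells, and 67.1 (male) and 67.4 (female) in somatic cells. Neither pair of sexes differed beyond counting error, with male over female ratios of 1.06 in germ cells (0.915 to 1.23) and 0.995 in somatic cells (0.923 to 1.07). Germ cells were 3.64-fold below somatic cells in males (3.27 to 4.05) and 3.87-fold in females (3.42 to 4.40). Its profile was nearest to that of Tet3 among the members, at a distance of 0.27 (Euclidean, log2 scale, over 4 libraries). Reads of processed copies of Tdg elsewhere in the genome cannot be told apart where the sequences match, and the gene overlaps Glt8d2 on the other strand by 63 bases. The part of somatic RNA, whose markers are given above, in the germ cell levels of Tdg and Tet3 was not tested.

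Ctcf, the insulator protein gene (chromosome 8, 108160437 to 108206822, plus strand) had 47.5 SPM (male) and 68.4 (female) in germ cells, and 100.4 (male) and 99.4 (female) in somatic cells. The somatic libraries did not differ beyond counting error (ratio 1.01, 0.9496 to 1.08), and both germ libraries were below them. Female germ cells were 1.44-fold above male germ cells (1.33 to 1.56), and male germ cells 2.12-fold below male somatic cells (1.97 to 2.28).

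Ctcfl, its germline paralog (chromosome 2, 172919109 to 172945026, minus strand) was a low, germ-cell gene with its highest level in males. Its estimated fragments numbered 218 in the male and 29 in the female germ library, and 4 and 2 in the somatic ones. The levels were 8.18 SPM (male) and 1.74 (female) in germ cells, and 0.266 (male) and 0.0681 (female) in somatic cells. The last is below the 0.120 SPM that 3 fragments are worth there. The level was 4.69-fold higher in male than in female germ cells (3.19 to 7.21) and 30.8-fold higher in male germ than in male somatic cells (13.1 to 126). In females the germ over somatic ratio was 25.6, with an interval of 5.50 to 188. Per length Ctcf exceeded Ctcfl by 4.88 times in male germ cells and 33.0 times in female germ cells, so the balance of the paralogs differed between germ cells of the sexes although Ctcf remained the higher. The somatic level of Ctcfl, from 4 fragments, was 3.25% of the germ level in males (ratio 0.0325, 0.00794 to 0.0764). Of the 8 germ markers, Ddx4, Dazl, Stk31 and Mael stood between 0.311% and 0.913% there. The highest of these 4 lies within the Ctcfl interval. The other 4 had ratios of 0.00465 (Dppa3), 0.00798 (Tdrd1), 0.00957 (Pou5f1) and 1.22 (Kit). The female ratio of Ctcfl, from 2 somatic fragments, was 0.0390 (0.00532 to 0.182). Female ratios of the 8 markers ran from 0.000564 (Pou5f1) to 0.786 (Kit). Dppa3 (0.00834) and Tdrd1 (0.0315) lay within that interval, and Ddx4, Dazl, Stk31 and Mael below it. The part of germ cell RNA in the somatic Ctcfl signal was not tested.

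**Figure D4:**
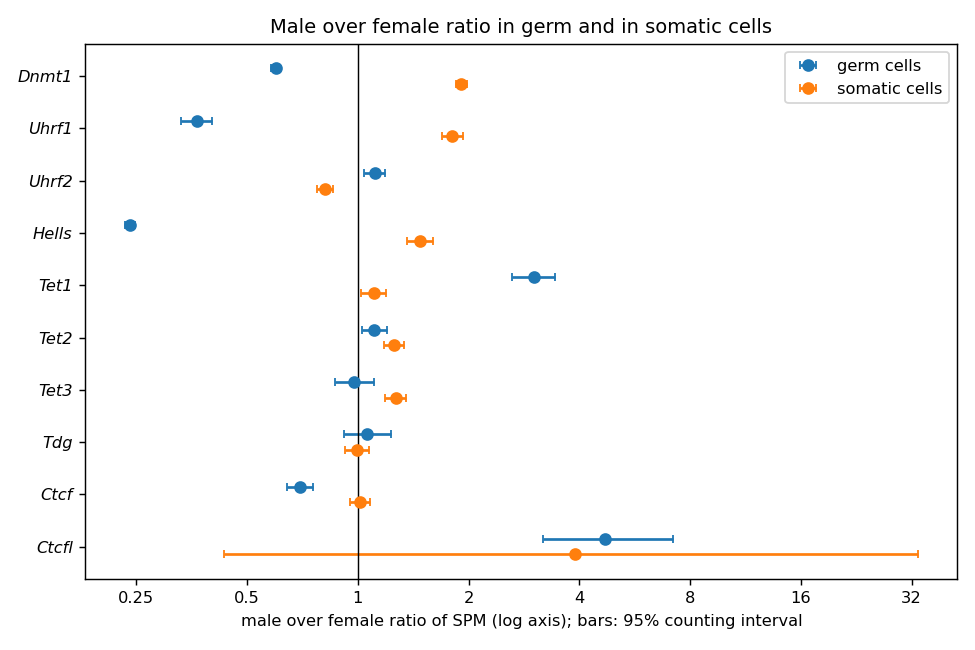
Male over female ratio of SPM (log axis) for each gene in germ cells (blue) and somatic cells (orange), with 95% counting intervals and 1 library per sex and fraction. Hells, Uhrf1 and Dnmt1 lie below 1 in germ cells and above 1 in somatic cells, and Tet1 and Ctcfl lie highest in germ cells.

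By the size rule of at least 2-fold with at least 5 SPM in the higher library, 2 of 10 members (Tet1 and Ctcfl) were higher and 2 (Uhrf1 and Hells) lower in male than in female germ cells, close to the 26.8% and 26.3% of all 11766 genes. In somatic cells none of the 9 members at 5 SPM was 2-fold apart between the sexes. Of 11835 genes, 9.61% were higher and 8.26% lower in males by this rule. The largest difference of a member was that of Dnmt1, at 1.91-fold. In males 2 members were at least 2-fold higher in germ than in somatic cells (Hells and Ctcfl) and 4 lower (Uhrf1, Tet3, Tdg and Ctcf), against 24.4% and 32.1% of 12636 genes. In females 2 were higher (Dnmt1 and Hells) and 3 lower (Tet1, Tet3 and Tdg), against 27.2% and 34% of 12245 genes. At a rule of 4-fold the counts were 2 between germ cells of the sexes (Hells and Ctcfl, against 24% of genes), none in somatic cells (6.17%), 2 between male germ and somatic cells (Uhrf1 and Ctcfl, 30.8%) and 1 in females (Hells, 36.1%). The 4 comparisons share libraries pairwise.

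Germ cells were then compared with somatic cells over both sexes, with limma on log2(SPM + 0.5) and the sexes as the 2 libraries of each cell type. Hells and Ctcfl had the largest positive differences and Tdg and Tet3 the largest negative ones, but none of the 10 passed at a limma adjusted p under 0.05 over all 14148 genes, of which 8.06% passed. At an unadjusted p under 0.05 there were 4 members, Hells, Ctcfl, Tdg and Tet3, against 31.4% of all genes. Hells differed by 2.74 ± 0.75 (SE, 2 libraries of each cell type) with a limma adjusted p of 0.0811, and Ctcfl by 2.74 ± 0.85 with an adjusted p of 0.102. The size of the Ctcfl difference depends on the pseudocount, since its levels are low. It was 3.98 with a pseudocount of 0.1 and 1.51 with 2. Tdg differed by -1.88 ± 0.46 and Tet3 by -1.79 ± 0.44, with limma adjusted p of 0.0676 and 0.0674. The remaining differences were -1.199 for Tet1, -1.10 for Uhrf1, -0.80 for Ctcf, -0.74 for Uhrf2, -0.58 for Tet2 and 0.38 for Dnmt1, with limma adjusted p from 0.254 to 0.654.

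In 6 members both germ libraries lay below both somatic libraries and in 2 both lay above, against 33.8% and 28.5% of the genes tested. The median difference of the members was -0.77, against -0.11 over all genes. Sex as a term brought Hells (adjusted p = 0.00362) and Ctcfl (adjusted p = 0.0229) past the limma threshold, as 21.6% of all genes then passed. Without the male germ library Hells, Tet1, Tet3 and Tdg passed (limma adjusted p from 0.0385 to 0.0439), as did 25.4% of all genes. Without the female germ library Tdg and Ctcfl passed (limma adjusted p of 0.0493 and 0.0482), as did 12.7% of all genes. In both fits the remaining germ library is assumed to vary like the somatic libraries, which alone give the spread. Without the female somatic library the Dnmt1 difference turned to -0.085. For the sex difference shared by both fractions, fitted with cell type as a term, none of the 10 passed by limma, at adjusted or unadjusted p under 0.05, against 0.134% of all genes that passed.

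**Figure D5:**
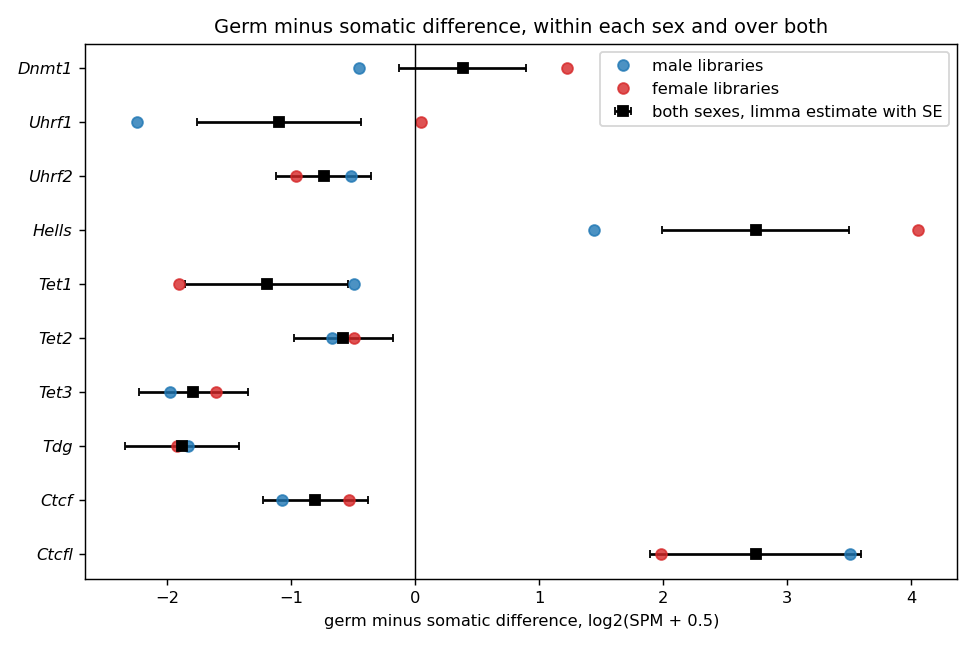
Germ minus somatic difference of log2(SPM + 0.5) for each gene, in male libraries (blue), in female libraries (red) and over both sexes (black square, limma estimate with its SE, n = 2 libraries per cell type). Tdg, Tet3 and Tet2 had similar differences in both sexes, while the sexes lay far apart for Hells, Uhrf1, Dnmt1, Ctcfl and Tet1.

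Partners of the maintenance step did not move as a block. Of 8 genes, 4 were at least 2-fold higher and 3 at least 2-fold lower in male than in female germ cells, against 26.8% and 26.3% of all genes. None of them passed the limma test of germ against somatic cells (2.5% and 5.56% of all genes passed as higher and lower). Dppa3, whose product blocks UHRF1 (also a germ cell marker), was 16.6-fold higher in male germ cells, at 599 against 36.2 SPM. Cdca7, which encodes an activator of HELLS, was 3.11-fold higher there, at 97.6 against 31.4 SPM, the opposite direction to Hells itself. Pcna, the gene of the replication clamp to which DNMT1 binds, and the histone deacetylase gene Hdac1 had male over female ratios of 0.241 and 0.420.

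Among 13 base excision repair genes, other glycosylase genes included, 12 reached 5 SPM in germ cells. Of these, 5 were at least 2-fold higher in male germ cells and 1 lower, against 26.8% and 26.3% of all genes. None of the 13 passed germ against somatic cells by limma, against 8.06% of all genes. The glycosylase gene Neil2 was 18.2-fold higher in male germ cells, at 34.3 against 1.88 SPM, with about 1 SPM in somatic cells (1.01 and 1.23). The abasic site nuclease gene Apex1 was 7.35-fold higher, at 336 against 45.7 SPM. At the other end Neil3 had a ratio of 0.124 and the methyl-CpG glycosylase gene Mbd4 0.586. Gadd45a and Gadd45b, stress response genes, had male over female ratios of 0.309 and 0.509 in germ cells.

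Among 5 genes of TET cofactors, 4 were at least 2-fold below the somatic level in male germ cells and 5 in female germ cells, against 32.1% and 34% of all genes. Idh2, a mitochondrial enzyme gene of the TET cosubstrate 2-oxoglutarate, fell by 4.05 ± 0.44 (SE, 2 libraries of each cell type, adjusted p = 0.0328 by limma), from 618 SPM (male) and 461 (female) in somatic cells to 24.9 (male) and 40.4 (female) in germ cells. It was the single member of this list that passed, against 5.56% of all genes that passed as lower. Ogt, the glycosyltransferase gene whose product binds TET enzymes, had a male over female ratio of 1.67 in germ cells, the highest of the 4 genes on this list that reached 5 SPM there. Of the 7 genes of methyl-CpG binding proteins none passed, against 8.06% of all genes. Their median difference was -0.38, against -0.11 over all genes. The male over female ratios of these 7 in germ cells ran from 0.305 (Zbtb4) to 2.15 (Zbtb38). Trim28, which holds methylation at imprints with zinc finger proteins, was near level, from 958 to 1151 SPM over the 4 libraries.

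Of the 12 cohesin genes and other partners of CTCF, none passed germ against somatic cells by limma, against 8.06% of all genes. Their median difference was 0.07, against -0.11 over all genes. Between germ cells of the sexes, the cohesin gene Rad21 was 7.41-fold higher in males, at 556 against 75.1 SPM, and Stag2, another cohesin gene, 1.67-fold, while the cohesin loader gene Nipbl had a ratio of 0.311 and Pds5a, a cohesin regulator gene, 0.349. Of 3 genes tied to CTCFL in the testis, 2 had the opposite sex difference to Ctcfl. Stag3, the meiotic cohesin gene, had 883 SPM (male) and 2536 (female) in germ cells, and Prss50 at 3.09 and 9.76, while Gal3st1, at 1.59 and 0.503, was higher in males, as Ctcfl was, and listed at 0 in both somatic libraries (this gene was picked after its values were seen). Stag3 rose in germ cells against somatic cells by 6.26 ± 0.60 (SE, 2 libraries of each cell type, adjusted p = 0.0328 by limma).

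For the 6 members whose highest library was at least 3 times the lowest, the genes nearest in profile over the 4 libraries were listed, out of 13256 genes that reached 5 SPM in 1 library or more. They were Gls2, Lrrc46 and Kcnc4 for Hells, at Euclidean distances of 0.22 to 0.27 on the log2 scale, and Dcbld2, Kcnk1 and Scx for Uhrf1 (0.093 to 0.18). For Tet1 they were Gsto1, Zfp619 and Ppp2r5b (0.099 to 0.12), and for Tet3 Fyn, Kank1 and Lphn1 (0.10 to 0.12). For Tdg they were Akap5, Acpl2 and Gstp1 (0.076 to 0.099), and for Ctcfl Oxgr1, Fam3b and Usp43 (0.17 to 0.28). With 4 points each, such likeness describes these libraries alone.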

How the data were processed

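Each of the 4 libraries had 1 deposited table with position, strand, symbol, length and a value per gene. The deposited values are a read signal, although the authors' column is headed counts: low values cluster at steps of 4.105 (male germ, female somatic), 6.07 (female germ) and 6.11 (male somatic), so the signal was read as scaled by library and rounded. Build mm9, TopHat 1.2.0, CASAVA 1.9 and edgeR stand, without roles, in the submitters' processing notes. No source used here gives the counting program, the annotation or the use of strand.

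With 1 fragment worth 1 step, depth was 24.9 M (male germ), 17.5 M (female germ), 17.6 M (male somatic) and 24.2 M (female somatic), where M is 1000000. Of nonzero values up to 200, 37.7% to 47.0% were a rounded multiple, against 16.4% to 24.4% by chance, so fragment numbers, intervals and floors of 3 fragments are estimates and cover counting error only, without regard to PCR copies. Repeated rows (74 of 20373) were removed. TMM factors, in that order, were 1.07, 0.956, 0.945 and 1.03. Levels between genes were compared only per kilobase of listed length.

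limma 3.58.1 (R 4.3.3, mean-variance trend, Benjamini-Hochberg) was run on log2(SPM + 0.5) over the genes that reached 1 SPM in 2 libraries or more, with a threshold of 0.05. The script was tested on simulated data. Since the labels name no separate animals, a p-value here reflects the spread among the 4 libraries alone, which may be technical. The members and gene lists were chosen with earlier results of these data known. All members are described. Of other lists, genes at the ends of the male over female ratios in germ cells (up to 2 each, among genes at 5 SPM in either germ library) and those that passed were named, except where a gene is said to be picked later. The E2F words were chosen after the data were seen. The alternatives were other scalings, pseudocounts, filters, model terms, size rules and leaving out each library. Promoter sequences are from RefSeq and were not lifted to mm9. Zfp57, on 1 list, is not analysed here, and 1 other listed gene is not reported here.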

Additional observations from a re-analysis of the deposited data

Results flagged for a closer look

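For 4 members the male over female ratio lay on opposite sides of 1 in germ and somatic cells, outside counting error and under every scaling tried. At any size and with TMM scaling, 27% of 10345 genes were lower in male germ and higher in male somatic cells, and 23.1% the reverse. The share of all genes under the stricter rule was not computed, so the count of 4 has no background to be read against. The difference between the fractions was not tested, since each ratio rests on 2 libraries. The ratio of Dnmt1 was 0.598 in germ cells and 1.91 in somatic cells. That of Uhrf1 was 0.365 in germ cells and 1.81 in somatic cells. Hells had 0.240 in germ cells and 1.48 in somatic cells. Uhrf2 went the other way, with 1.11 in germ cells and 0.815 in somatic cells.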

How the results depend on the processing

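No member passed germ against somatic cells in limma under library totals, upper-quartile scaling, pseudocounts of 0.1 and 2 or no filter, where 4 members each had an unadjusted p under 0.05. With no filter 0 of all genes passed limma, although 4625 had an unadjusted p under 0.05. With sex as a term 2 members passed (3049 genes against 1140). Leaving out each library gave 0 to 4 members (64 to 3597 genes). The Dnmt1 difference ran from -0.085 without the female somatic library to 0.85 without the male somatic library. For the shared sex difference no member passed under any alternative, Uhrf2 turned to 0.049 under upper-quartile scaling, and the count of all genes ran from 0 to 126 against 19, with 59 to 1175 at an unadjusted p under 0.05. Fits of it without 1 library have no residual degrees of freedom and were not made. A size rule of 4-fold left 2 members between germ cells of the sexes, 2 between male germ and somatic cells and 1 between female germ and somatic cells. The other alternatives of these counts stayed within 1.5 times. Upper-quartile scaling moved every male over female germ cell ratio by 0.28 on the log2 scale and library totals by 0.16. The labels give no replicate numbers, so no replicate block was fitted. The fit with sex as a term, which pairs the libraries by sex, stands in its place.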
